A study of Homo sapiens with 12 samples.

Results

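The genes described here encode 9 proteins of the B cell surface, most of which are bound by therapeutic antibodies or antibody conjugates: MS4A1 (CD20), CD22, CD79A, CD79B, CD38, CD37, CD52, CD72 and CR2 (CD21). They were taken by symbol, and all 9 had a row among the 58656 usable entries of the deposited expression table. RNA was sequenced from 4 established lines of diffuse large B-cell lymphoma, U2932, SUDHL-4, TMD8 and WSU-DLCL2, after 18 hours in DMSO (the solvent control), lenalidomide or avadomide (CC-122). Every combination of line and treatment is 1 library, which makes 12 libraries and 4 per treatment. The sources used here state no dose for either compound, so it is unknown whether the doses match. The lines are cultured tumour cells without the T cells, macrophages and stroma of a lymph node.

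Antibodies against these proteins mark B cells for killing by complement or immune effector cells, carry a toxin into them, or block a signal, and each of these depends on how much of the target the cell displays. CD79A and CD79B are the signalling chains of the B cell receptor, CR2 is the complement receptor of its coreceptor, and CD22 and CD72 carry inhibitory motifs that recruit phosphatases to the activated receptor. MS4A1 and CD37 span the membrane several times, CD38 is an enzyme that consumes NAD at the cell surface, and CD52 is a short peptide held by a glycosylphosphatidylinositol (GPI) anchor. Lenalidomide and avadomide both hold a glutarimide ring and bind cereblon, the substrate receptor of a ubiquitin ligase. This leads to degradation of the transcription factors Ikaros (IKZF1) and Aiolos (IKZF3). Lenalidomide joins the ring to an isoindolinone and avadomide to a quinazolinone. RNA was measured here, not protein at the surface.

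Promoters of 6 of the 9 genes were found in the RefSeq table of GRCh38.p14, those of CD22, CD79A, CD38, CD52, CD72 and CR2. They cover 250 bases before and 50 bases after the start of transcription. The promoters of CD52 and CD22 are shown because these genes rose and fell with avadomide, and that of CD38 because it held a match to the Ikaros core. Capitals mark matches to any of the 4 motifs searched on both strands: TGGGAA (Ikaros core), GAAANNGAA (core of the interferon-stimulated response element), ATGCAAAT (octamer) and GAGGAA (PU.1 core).
CD52, chr1:26317708-26318007, plus strand: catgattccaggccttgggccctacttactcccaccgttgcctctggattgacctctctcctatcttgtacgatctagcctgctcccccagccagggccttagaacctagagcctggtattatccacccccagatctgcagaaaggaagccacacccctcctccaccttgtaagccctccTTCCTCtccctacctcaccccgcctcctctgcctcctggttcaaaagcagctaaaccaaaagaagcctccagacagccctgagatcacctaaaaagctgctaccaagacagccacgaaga
CD22, chr19:35328937-35329236, plus strand: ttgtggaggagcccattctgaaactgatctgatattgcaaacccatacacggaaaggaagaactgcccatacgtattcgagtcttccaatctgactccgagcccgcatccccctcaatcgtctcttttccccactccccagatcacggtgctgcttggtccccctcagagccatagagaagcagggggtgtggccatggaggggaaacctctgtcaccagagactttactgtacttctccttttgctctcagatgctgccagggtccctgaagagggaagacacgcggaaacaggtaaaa
CD38, chr4:15778078-15778377, plus strand: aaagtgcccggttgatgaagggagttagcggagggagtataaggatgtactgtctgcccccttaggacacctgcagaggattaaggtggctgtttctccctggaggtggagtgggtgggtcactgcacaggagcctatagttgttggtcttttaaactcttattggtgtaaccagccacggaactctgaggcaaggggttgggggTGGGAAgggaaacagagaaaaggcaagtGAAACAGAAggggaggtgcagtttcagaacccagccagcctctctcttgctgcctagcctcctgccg
The CD38 window held TGGGAA beginning 45 bases before the start and GAAACAGAA beginning 17 bases before it. The CD52 window held GAGGAA on the opposite strand at position -70, read as TTCCTC above. CD72 held GAGGAA at positions -190 and -45, the latter on the opposite strand. No match was found in CD22, CD79A or CR2, so 3 of 6 windows held any motif. Among 35116 RefSeq promoters of this length, TGGGAA occurred in 24.03%, GAAANNGAA in 8.11%, ATGCAAAT in 1.77% and GAGGAA in 27.9%. The CD22 and CD72 windows lie inside the longer loci that GENCODE gives for these genes.

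Levels below are the deposited log2 values. They are not divided by transcript length, so a level is compared between libraries for the same gene and never between genes. Sequencing depth is unknown. At log2 5 or more, a library held 13865 to 15294 genes. For each marker list, the linear levels were summed and the sum given as log2, to be compared between libraries and not between lists. For 6 B cell markers, 4 of them among the 9 genes, it was 17.9 to 18.4 over the 12 libraries. Of markers of other cells, those of T and NK cells summed to 8.26 to 13.0, of which TRAC gave the most, while CD3D and GNLY were below 0 in every library. Myeloid markers summed to 3.84 to 7.09, with S100A8 listed at 0 and S100A9 below 0 throughout. Stromal and epithelial markers summed to 9.48 to 12.0002, and plasma cell markers to 13.5 to 16.4. As these are bulk samples, fewer cells with a transcript and less of it per cell cannot be told apart.

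The lines differed widely in CR2, CD52 and CD38 and little in CD79A and MS4A1. Under DMSO the spread from the lowest to the highest line was 101-fold for CR2, 27.9-fold for CD52 and 23.5-fold for CD38. It was 4.44-fold for CD72, 3.22-fold for CD22, 1.93-fold for CD79B, 1.49-fold for CD37, 1.24-fold for MS4A1 and 1.22-fold for CD79A, the last 2 being about as large as the differences among the treatments of a line. The line orders below use the mean of a line's 3 libraries, 1 per treatment, and the fit across all genes described under processing (limma, adjusted p below 0.05, two-sided). The 3 libraries of a line are 3 treatments of it and not replicate cultures, so these p-values do not measure the spread between cultures. Between SUDHL-4 and TMD8 8 of the 9 genes differed, where 75.1% of all tested genes did, and between TMD8 and WSU-DLCL2 8 (73.3%). U2932 and TMD8 differed in 7 (74.7%), U2932 and SUDHL-4 in 5 (73.2%), U2932 and WSU-DLCL2 in 5 (72%), and SUDHL-4 and WSU-DLCL2 in 4 (57.2%). TMD8 stood at an end of the order most often: its mean was lowest in 6 of the 9 genes and highest in CD37. In CD22 and CD79A, though, its libraries overlapped with those of the next line, U2932 and WSU-DLCL2.

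**Figure D1:**
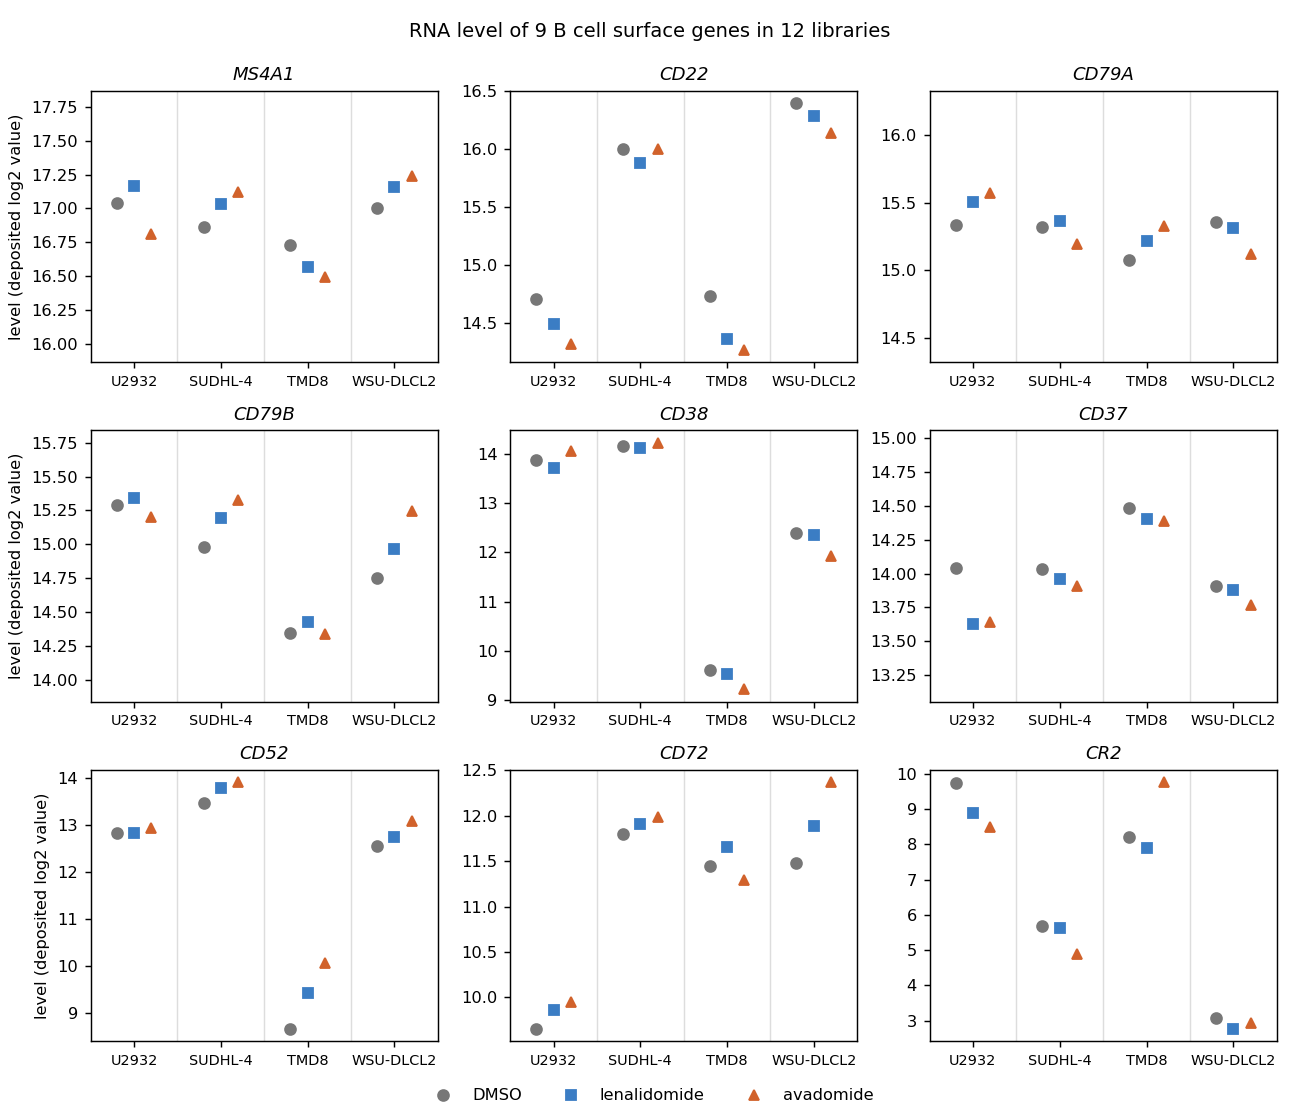
Deposited log2 RNA level (vertical axis, own range for each gene) of the 9 genes in each of 12 libraries, by cell line, with circles for DMSO, squares for lenalidomide and triangles for avadomide. CD38 and CD52 sit lowest in TMD8, CR2 sits lowest in WSU-DLCL2, and the CD79A points of all lines lie between 15.08 and 15.57.

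CD79A (chr19:41877120-41881372, plus strand, GENCODE 29 on GRCh38), the alpha signalling chain of the B cell receptor, was the most even of the genes. Its DMSO level was 15.33 in U2932, 15.32 in SUDHL-4, 15.08 for TMD8 and 15.36 for WSU-DLCL2. With lenalidomide it was 15.50, 15.36, 15.22 and 15.31, and with avadomide 15.57, 15.20, 15.32 and 15.12, in the same order of lines. The treatment groups overlapped, and no neighbouring lines in the order U2932, SUDHL-4, WSU-DLCL2, TMD8 differed (adjusted p from limma 0.0895, 0.806 and 0.570). The ends of that order did differ, U2932 being 1.199-fold above TMD8 (0.0191). The mean change over the 4 lines was 0.032 ± 0.075 (SE) with avadomide, with a 95% interval from -0.14 to 0.20.

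CD79B (chr17:63928740-63932354, minus strand), the partner chain and the target of polatuzumab vedotin, was lowest in TMD8. Under DMSO the level was 15.29 (U2932), 14.98 (SUDHL-4), 14.35 (TMD8) and 14.75 (WSU-DLCL2). With lenalidomide the values were 15.34, 15.19, 14.42 and 14.97, and with avadomide 15.20, 15.33, 14.34 and 15.24. All 3 TMD8 libraries lay below every other library, and TMD8 was below its neighbour WSU-DLCL2 (adjusted p from limma 0.000218), whereas the other neighbours did not pass (0.308 and 0.143). U2932 was 1.23-fold above WSU-DLCL2 (0.0200). The avadomide change was 0.19 ± 0.084 (SE) and did not pass the threshold (adjusted p from limma 0.138, 95% interval from -0.0025 to 0.37).

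The 2 chains, which are assembled into the same receptor, moved in opposite directions with avadomide in each of the 4 lines. CD79A was higher by 0.24 in U2932 and by 0.25 in TMD8, where CD79B changed by -0.089 and -0.010. In SUDHL-4 and WSU-DLCL2, CD79A changed by -0.12 and -0.24 and CD79B by 0.35 and 0.49. MS4A1 took the sign of CD79B in every line. With lenalidomide the chains moved apart only in WSU-DLCL2, by -0.050 and 0.22. This pattern was picked out after the values were seen, and with 1 library per line and treatment the difference between lines was not tested. The CD79B change in TMD8 is close to 0, and with quantile normalization it was 0.030, which ends the opposite signs there. With median centring the signs were opposite in all 4 lines.

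**Figure D2:**
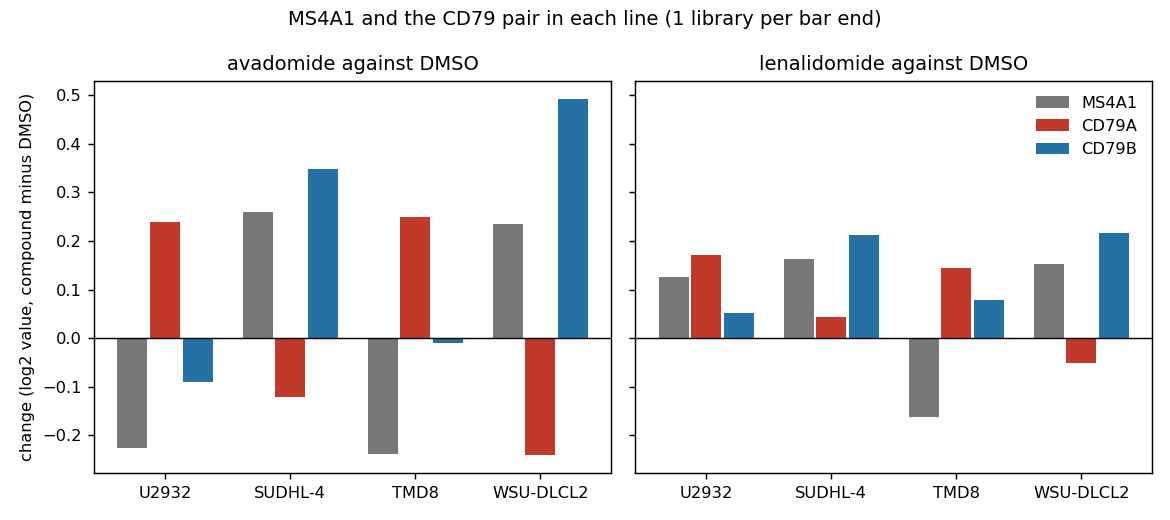
Change in log2 value against DMSO (vertical axis) of MS4A1, CD79A and CD79B in each line, for avadomide on the left and lenalidomide on the right; each bar is the difference of 1 pair of libraries. With avadomide the CD79A bar points away from the CD79B bar in each line, by the least in TMD8, where CD79B is at -0.010.

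MS4A1 (chr11:60455752-60470760, plus strand), the target of rituximab, varied little. DMSO libraries gave 17.04 for U2932, 16.87 for SUDHL-4, 16.73 for TMD8 and 17.01 for WSU-DLCL2. The lenalidomide values were 17.17, 17.03, 16.57 and 17.16 and the avadomide values 16.81, 17.13, 16.49 and 17.24. TMD8 held the 3 lowest libraries and was below its neighbour U2932 (adjusted p from limma 0.00490), and the other neighbours WSU-DLCL2, SUDHL-4 and U2932 did not differ beyond their spread (0.320 and 0.991). With avadomide the lines split, at -0.23 in U2932 and -0.24 in TMD8 against 0.26 in SUDHL-4 and 0.23 in WSU-DLCL2, and the mean change was 0.0072 ± 0.090 (SE; 95% interval from -0.19 to 0.21). That sign turned to -0.10 with median centring.

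CD37 (chr19:49335171-49343335, plus strand), a tetraspanin of mature B cells, fell with avadomide in all 4 lines by a small amount. Its DMSO level was 14.04 in U2932, 14.03 in SUDHL-4, 14.49 for TMD8 and 13.91 for WSU-DLCL2. With avadomide it was 13.64, 13.91, 14.39 and 13.76, and with lenalidomide 13.62, 13.96, 14.40 and 13.88. The groups overlapped across lines, but each treated library was below the DMSO library of its own line. The avadomide change was -0.19 ± 0.059 (SE), or 0.876-fold, with an adjusted p of 0.0411 from limma. U2932 carried most of it, at -0.40 against -0.12, -0.097 and -0.15 in SUDHL-4, TMD8 and WSU-DLCL2. Without U2932 the change was -0.12 (adjusted p 0.0626), and leaving out SUDHL-4, TMD8 or WSU-DLCL2 also ended the call (0.0828, 0.0664 and 0.104). TMD8 had the highest level, above SUDHL-4 (adjusted p from limma 0.000145), and the other neighbours did not pass (0.170 and 0.303). The SUDHL-4 libraries, from 13.9116, nevertheless lay just above those of WSU-DLCL2, which reached 13.9108. U2932 was 1.15-fold below SUDHL-4 (0.0231).

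CD22 (chr19:35319261-35347355, plus strand), a sialic acid-binding inhibitory receptor and the target of inotuzumab ozogamicin, fell with avadomide. Under DMSO the level was 14.71 (U2932), 16.00 (SUDHL-4), 14.73 (TMD8) and 16.39 (WSU-DLCL2). With lenalidomide the values were 14.49, 15.88, 14.36 and 16.28, and with avadomide 14.32, 16.00, 14.27 and 16.14. SUDHL-4 did not follow: its avadomide library differed from DMSO by 0.0032, against -0.39 for U2932, -0.46 for TMD8 and -0.26 for WSU-DLCL2. The mean change was -0.28 ± 0.067 (SE; 0.825-fold, adjusted p from limma 0.0150). Without SUDHL-4 it was -0.37 (0.00464), and without U2932, TMD8 or WSU-DLCL2 the call was lost (0.0927, 0.0709 and 0.0694). CD22 also split the lines into a high and a low pair: SUDHL-4 was 2.74-fold above U2932 (6.94e-08), WSU-DLCL2 was above SUDHL-4 (0.00605), and U2932 and TMD8 did not differ (0.570).

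CD72 (chr9:35609533-35646810, minus strand), an inhibitory C-type lectin whose ligand on T cells is CD100, was 3.12-fold lower in U2932 than in its neighbour TMD8 (adjusted p from limma 4.74e-06). DMSO libraries gave 9.65 for U2932, 11.80 for SUDHL-4, 11.45 for TMD8 and 11.48 for WSU-DLCL2. With lenalidomide it was 9.86, 11.91, 11.65 and 11.89, and with avadomide 9.95, 11.99, 11.29 and 12.37. The library of WSU-DLCL2 with avadomide was the highest of all, 0.89 above its DMSO library. The mean avadomide change was 0.30 ± 0.13 (SE; 95% interval from 0.0041 to 0.60), which did not pass over all genes (adjusted p 0.129). TMD8 went the other way, at -0.16, and without it the change was 0.45 (0.0328). WSU-DLCL2 and SUDHL-4 did not differ in level (0.957), and SUDHL-4 was above TMD8 (0.0257).

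CR2 (chr1:207454230-207489895, plus strand), the receptor for complement fragment C3d and for Epstein-Barr virus, had the widest range over the lines. Its DMSO level was 9.74 in U2932, 5.67 in SUDHL-4, 8.22 for TMD8 and 3.08 for WSU-DLCL2. With lenalidomide it was 8.88, 5.64, 7.90 and 2.77, and with avadomide 8.50, 4.88, 9.76 and 2.95. The avadomide changes ran from -1.24 in U2932 and -0.79 in SUDHL-4 to 1.54 in TMD8, the only line with a rise, and averaged -0.16 ± 0.40 (SE; adjusted p from limma 0.815). Without TMD8 the mean was -0.72 and without U2932 it was 0.20. With lenalidomide it was lower in 4 of 4 lines, by -0.032 to -0.86, with a mean of -0.38 that did not pass (0.744). The smallest of these, in SUDHL-4, was 0.0061 with median centring. U2932 and TMD8 did not differ in level (0.429), TMD8 was 9.38-fold above SUDHL-4 (9.88e-05), and SUDHL-4 was 5.52-fold above WSU-DLCL2 (0.00109).

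CD38 (chr4:15778275-15853230, plus strand), the NAD-consuming ectoenzyme bound by daratumumab, was high in 2 lines and low in TMD8. Under DMSO the level was 13.87 (U2932), 14.16 (SUDHL-4), 9.60 (TMD8) and 12.40 (WSU-DLCL2). The lenalidomide values were 13.72, 14.13, 9.54 and 12.35 and the avadomide values 14.07, 14.23, 9.22 and 11.93. Every SUDHL-4 library lay above every U2932 library, but the difference did not pass (adjusted p from limma 0.0758). U2932 was above WSU-DLCL2 (1.73e-06), and WSU-DLCL2 was 6.85-fold above TMD8 (2.85e-08), so that SUDHL-4 stood 26.3-fold over TMD8. Avadomide gave 0.20 and 0.066 in the 2 lines with more CD38 and -0.39 and -0.47 in TMD8 and WSU-DLCL2, and the mean of -0.15 ± 0.12 (SE) did not pass (0.395).

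CD52 (chr1:26317957-26320523, plus strand), the GPI-anchored target of alemtuzumab, rose with avadomide in 4 of 4 lines. DMSO libraries gave 12.85 for U2932, 13.47 for SUDHL-4, 8.67 for TMD8 and 12.57 for WSU-DLCL2. With lenalidomide it was 12.83, 13.80, 9.44 and 12.75, and with avadomide 12.94, 13.92, 10.07 and 13.09. The treatment groups overlapped across lines, since TMD8 was 10.6-fold below WSU-DLCL2 (adjusted p from limma 7.24e-08). The avadomide change was 0.62 ± 0.16 (SE; 1.53-fold, 95% interval from 0.26 to 0.98, adjusted p 0.0206). It was 1.40 in TMD8, the line with the least CD52, and 0.097, 0.45 and 0.53 in U2932, SUDHL-4 and WSU-DLCL2. Without TMD8 it was 0.36 (0.0223), and the call was lost without SUDHL-4 (0.0581) or WSU-DLCL2 (0.0836). With median centring the U2932 change was -0.081.

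Counted over the 9 genes, all of which passed the filter on low values, avadomide raised 1 (CD52) and lowered 2 (CD22 and CD37), 3 in all. Over the 22528 genes tested 24.8% were called, 13.6% higher and 11.2% lower, so the share among these genes is near the background. At an unadjusted p below 0.05 there were 4, CD72 being the fourth, beside 8425 of all 22528 tested genes. Only CD52 was higher and only CD37 lower in 4 of 4 lines, against 36.5% of all tested genes with the same direction in 4 lines. This holds on the deposited scale: with median centring CD52 was at -0.081 in U2932. With quantile normalization CD22 was also lower in 4 of 4 lines, by the least in SUDHL-4 at -0.0071. The median change of the 9 genes was 0.0072, beside 0.011 for all tested genes, and the median absolute change 0.185, beside 0.164. Median centring, which shifted the median avadomide change of all tested genes by -0.11 and turned the split of called genes from 3068 higher and 2514 lower to 1881 and 4825, left CD52 at 0.51 (adjusted p from limma 0.0317), CD22 at -0.39 (0.0107) and CD37 at -0.30 (0.0111). The B cell marker list moved little, with 2 of 6 lower, CD22 among them, and 0 higher.

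**Figure D3:**
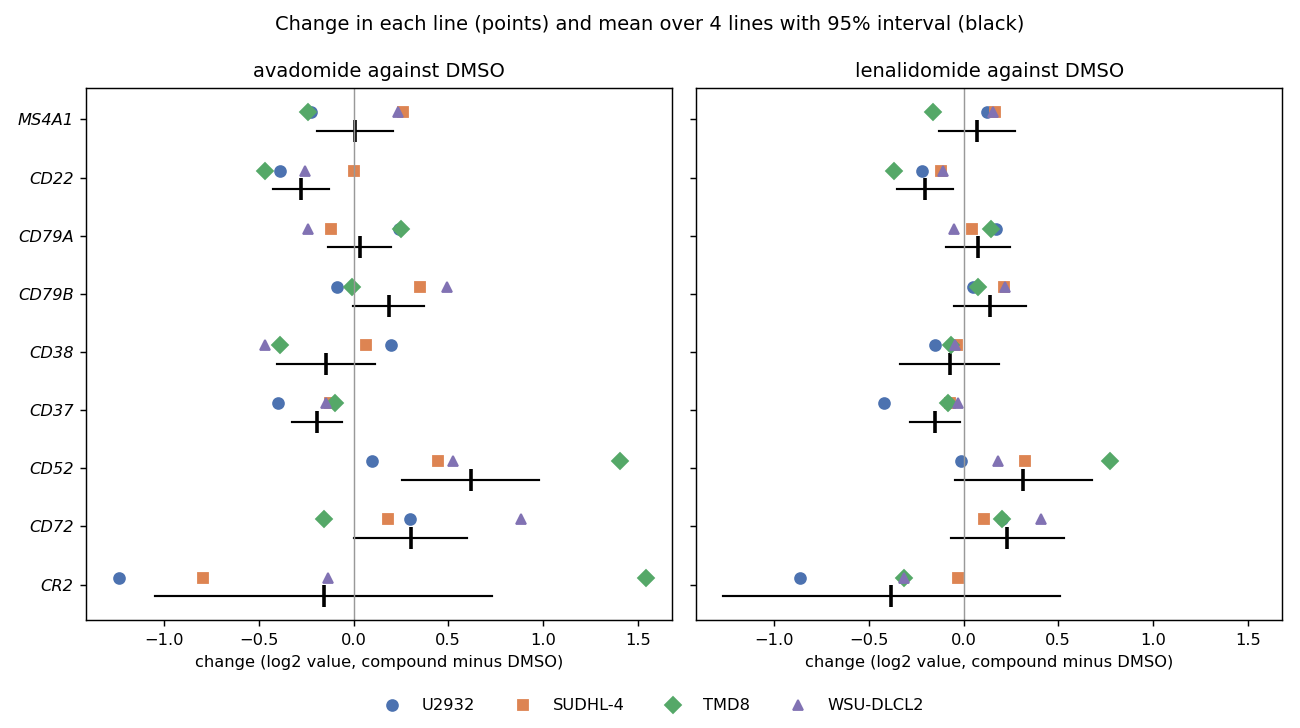
Change in log2 value (horizontal axis) for each gene in each of 4 lines (coloured points, 1 pair of libraries each), with the mean over lines and its 95% interval in black below, for avadomide on the left and lenalidomide on the right. The intervals of CD52, CD72, CD22 and CD37 lie away from 0 with avadomide, CD72 without a call over all genes, and those of CD22 and CD37 with lenalidomide, and the CR2 points reach from -1.24 to 1.54.

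With lenalidomide 0 of the 9 genes were called by limma, beside 0.235% of all tested genes, 0.226% higher and 0.00888% lower. At an unadjusted p below 0.05 there were 2, CD22 at -0.20 ± 0.067 (SE, adjusted p 0.239) and CD37 at -0.15 ± 0.059 (0.317). Of all 22528 tested genes 2922 passed that unadjusted limit. CD22, CD37, CD38 and CR2 were lower and CD79B and CD72 higher in 4 of 4 lines, while 28% of all tested genes kept 1 direction in 4 lines. With median centring the SUDHL-4 changes of CD38 and CR2 were 0.0050 and 0.0061, which ends the shared direction of these genes. The CD52 change was 0.32 (95% interval from -0.044 to 0.68; 0.448), with -0.013 for U2932, 0.32 for SUDHL-4, 0.77 for TMD8 and 0.18 for WSU-DLCL2. CD72 was at 0.23 (0.508), CD79B at 0.14 (0.529), CD79A at 0.077 (0.717), MS4A1 at 0.070 (0.7998) and CD38 at -0.074 (0.843).

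Set against lenalidomide directly, avadomide called 0 of the 9 genes by limma, beside 4.73% of all tested genes, 2.51% higher and 2.22% lower. At an unadjusted p below 0.05 there were 0 of the 9, beside 4989 of all 22528 tested genes. The CD52 difference was 0.30 (95% interval from -0.057 to 0.66; adjusted p 0.303), with avadomide higher in 4 of 4 lines, by 0.11 in U2932, 0.12 for SUDHL-4, 0.63 for TMD8 and 0.35 for WSU-DLCL2. Such a shared direction was seen in 31.7% of all tested genes, and CD52 was the only one of the 9 with it on the deposited scale. With median centring the CD52 difference in U2932 was -0.033, while CD37 and CD79A were lower in 4 of 4 lines. The CD22 difference was -0.073 (interval from -0.22 to 0.076) and the CD37 difference -0.039 (from -0.17 to 0.093). For the remaining genes adjusted p ran from 0.731 to 0.803, with the widest interval for CR2, from -0.66 to 1.11. The CD52 interval includes both 0 and 0.62, the size of the avadomide change itself, and whether the doses match is unknown.

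Other surface proteins of the B lineage that antibodies or engineered T cells bind also changed with avadomide. Of 20 such genes 19 could be tested, and 4 rose and 3 fell, beside 24.8% of all tested genes called. The median change was 0.13, against 0.011 for all tested genes, and it was 0.025 with median centring and -0.085 without WSU-DLCL2. CD40, a receptor for T cell help, rose by 0.68 ± 0.15 (SE; adjusted p from limma 0.00967) and the adhesion molecule ICAM1 by 0.54 ± 0.11 (0.00646), both in 4 of 4 lines. CD70, the ligand of CD27, rose by 0.44 ± 0.11 (0.0188), and FCRL5, an Fc receptor-like protein, fell by 0.51 ± 0.10 (0.00646). CD47, the signal against phagocytosis, and TNFRSF13C, the receptor for BAFF, were among the other genes called, at 0.28 and -0.21. With the GC trend removed CD47 was at 0.11 and not called (0.138), and with median centring CD70 was at 0.33 (0.0564). Leaving out 1 line gave 2 to 5 higher and 1 to 2 lower: CD40 was lost without U2932 (0.0572), CD70 without U2932, SUDHL-4 or WSU-DLCL2 (0.0705 to 0.105), and TNFRSF13C without SUDHL-4 or WSU-DLCL2 (0.0618 and 0.0775).

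**Figure D4:**
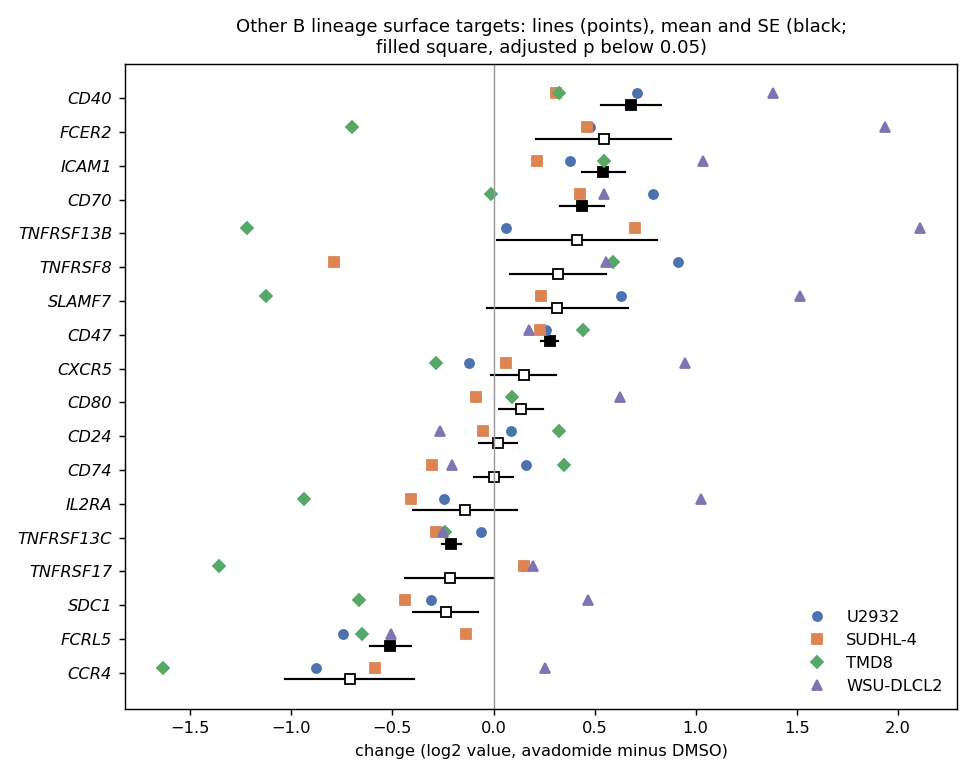
Change in log2 value with avadomide (horizontal axis) of 18 other B lineage surface targets, with coloured points for the 4 lines, which may lie on top of each other, and a square with the SE for the mean, filled where the adjusted p was below 0.05. CD40, ICAM1, CD70 and CD47 lie above 0 and FCRL5 and TNFRSF13C below it as filled squares, while FCER2, TNFRSF13B and SLAMF7 have TMD8 and WSU-DLCL2 far apart.

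Of 12 genes of the B cell receptor and coreceptor, 2 rose and 3 fell, beside 24.8% of all tested genes called. Their median change was -0.011, and 0.024 to 0.069 without U2932, SUDHL-4 or WSU-DLCL2. IFITM1, an interferon-induced protein that joins CD81 at the membrane, rose by 2.52 ± 0.42 (SE; adjusted p from limma 0.00286), least in SUDHL-4 at 0.50. The tetraspanin CD81 fell by 0.41 ± 0.071 (0.00303), and the adaptor BLNK by 0.31 (0.0122), while the kinase SYK rose by 0.20 (0.0170). BLNK was lost without WSU-DLCL2 (0.0744) and SYK without U2932, TMD8 or WSU-DLCL2 (0.0688 to 0.0859). With median centring the split was 1 higher and 5 lower, with the GC trend removed 2 and 5, and without WSU-DLCL2 1 and 1.

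Of 17 inhibitory receptors of B cells and their phosphatases, which include CD22 and CD72, 3 rose and 5 fell, beside 24.8% of all tested genes called. The median change was -0.087. Without U2932 there were 2 higher and 2 lower, and without TMD8 4 and 4. PECAM1, an adhesion molecule with inhibitory motifs, rose by 1.92 ± 0.26 (SE; adjusted p from limma 0.00135) and the inhibitory Fc receptor FCGR2B by 0.95 ± 0.15 (0.00255). The collagen receptor LAIR1 fell by 1.03 ± 0.16 (0.00251). BTLA rose by 0.79 (0.0167), a call lost without U2932, SUDHL-4 or WSU-DLCL2 (0.0684 to 0.0915). FCGR2B has a near-identical neighbour, FCGR2C, and how reads were divided between them is not stated.

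Of 16 tetraspanins, the family of CD37, 3 rose and 4 fell, beside 24.8% of all tested genes called. Their median change was 0.042, -0.068 with median centring, -0.043 with quantile normalization, -0.032 with the GC trend removed, -0.0028 without U2932 and -0.024 without TMD8. Under each of these 3 scalings 3 were higher and 6 lower, and without SUDHL-4, TMD8 or WSU-DLCL2 only 2 were lower. TSPAN13 rose by 0.87 ± 0.13 (SE; adjusted p from limma 0.00208) and TSPAN14, which escorts the protease ADAM10, by 0.55 ± 0.089 (0.00275). TSPAN4 fell by 0.47 (0.0217), a call lost without SUDHL-4 or TMD8 (0.0535 and 0.0582), and CD81 fell as given above. Of 15 genes of the MS4A family 8 could be tested and 0 were called by limma. At an unadjusted p below 0.05 there were 2, beside 8425 of all 22528 tested genes. Apart from MS4A1 and MS4A7 their mean log2 values over the libraries were below 5. In TMD8, though, MS4A6A was at 9.81 to 10.89, MS4A4A at 6.58 to 7.15 and MS4A4E at 6.77 to 6.93.

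Of 11 complement receptors and membrane regulators, the group of CR2, 9 were tested and 1 rose and 1 fell, beside 24.8% of all tested genes called. The median change was 0.41, but -0.027 without TMD8. CD59, which blocks the membrane attack complex, rose by 0.41 ± 0.067 (SE; adjusted p from limma 0.00265) in 4 of 4 lines. CD55, which speeds the decay of complement convertases, fell by 0.25 (0.0159), a call lost without U2932 or WSU-DLCL2 (0.0674 and 0.0940). With median centring or without SUDHL-4 2 were higher and 1 lower, and without U2932 2 and 0.

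Of 10 ectoenzymes of NAD and nucleotides, the group of CD38, 7 were tested and 2 rose, beside 24.8% of all tested genes called. Their median change was 0.10, -0.0071 with median centring, -0.0040 with quantile normalization and -0.051 without U2932. BST1, the relative of CD38 on the same chromosome arm, rose by 0.99 ± 0.16 (SE; adjusted p from limma 0.00249) at log2 levels of 2.69 to 4.89. ENTPD1 (CD39), which degrades extracellular ATP, rose by 0.67 ± 0.12 (0.00434). Both calls held without any 1 line.

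Of 28 genes that build the GPI anchor that CD52 carries, 27 were tested, and 6 rose and 3 fell, beside 24.8% of all tested genes called. The median change was 0.0041, close to 0, and -0.11 with median centring. PGAP1, which removes an acyl chain from the finished anchor, rose by 0.62 ± 0.053 (SE; adjusted p from limma 0.000274) and PGAP2, which remodels its fatty acids, fell by 0.45 ± 0.047 (0.000437). PIGP, a subunit of the enzyme of the first step, rose by 0.38 (0.000964) and PIGN, which adds an ethanolamine phosphate to the anchor's mannose chain, by 0.29 (0.00279). The split was 2 higher and 8 lower with median centring, under which PIGN was lost (0.0828), 3 and 7 with the GC trend removed, 4 and 5 with quantile normalization, and 4 and 2 without U2932 or WSU-DLCL2.

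Of 18 B cell transcription factors, 5 rose and 6 fell, beside 24.8% of all tested genes called. Their median change was -0.022, and 0.056 and 0.055 without U2932 or TMD8. XBP1, a regulator of secretion, rose by 0.80 ± 0.053 (SE; adjusted p from limma 0.000161) and the RNA of IKZF1 by 0.72 ± 0.085 (0.000780). SPIB, a factor of the PU.1 family, fell by 0.50 (0.0203) and IRF8 by 0.40 (0.0442). SPIB was lost without U2932 or TMD8 (0.0597 and 0.0840) and IRF8 without U2932, SUDHL-4 or WSU-DLCL2 (0.0680 to 0.112). With median centring 3 were higher and 7 lower, and without WSU-DLCL2 3 and 3.

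Some genes listed as markers of other cells moved with avadomide too, beside 24.8% of all tested genes called, 13.6% higher and 11.2% lower. Of 5 tested T and NK cell markers 1 rose, the granule protein NKG7 by 2.59 ± 0.55 (SE; adjusted p from limma 0.00882; lost without WSU-DLCL2, 0.0546). Of 5 tested myeloid markers 3 rose, the lysozyme LYZ by 1.64, FCN1 by 0.91 and CD68 by 0.67. All 3 were lost without U2932 or WSU-DLCL2 (0.0597 to 0.142), LYZ also without TMD8 (0.0902) and CD68 without SUDHL-4 (0.0643). These changes are at low levels, with log2 values of 0.30 to 4.11 for LYZ and 1.24 to 2.76 for CD68. FCN1 was at 6.29 to 6.51 in SUDHL-4 and no higher than 2.46 in the other lines. NKG7 reached 6.76 in TMD8 and was no higher than 3.53 in the other lines. Of 7 tested stromal and epithelial markers PECAM1 and the collagen COL1A1 (1.27) rose and DCN fell by 0.35; COL1A1 was lost without U2932, TMD8 or WSU-DLCL2 (0.0570 to 0.0673). Of 5 plasma cell markers 0 were called by limma, with 0 at an unadjusted p below 0.05, beside 8425 of all 22528 tested genes. The summed level of the T and NK list was 8.26 to 13.0 with DMSO and 9.39 to 12.8 with avadomide, that of the myeloid list 3.84 to 6.62 and 4.59 to 7.09, and that of the stromal list 9.48 to 11.9 and 10.4 to 11.8. The part of these markers in the changes of the 9 genes was not tested.

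With lenalidomide 0 genes of any of these lists were called by limma. At an unadjusted p below 0.05 there were 0 to 6 genes per list, beside 2922 of all 22528 tested genes. Directly against lenalidomide, avadomide was higher for IFITM1 by 1.93 (adjusted p from limma 0.0359), PECAM1 by 1.45 (0.0235), XBP1 by 0.60 (0.00515), TSPAN14 by 0.43 (0.0340), IKZF1 by 0.42 (0.0318), PGAP1 by 0.33 (0.0180), PIGN by 0.22 (0.0359) and PIGP by 0.22 (0.0376). It was lower for LAIR1 (difference -0.69, adjusted p 0.0463), DCN (-0.36, 0.0291) and PGAP2 (-0.31, 0.0163). Of these 11 calls 0 were kept without U2932 (adjusted p 0.0747 to 0.196), 1 without TMD8 or WSU-DLCL2 (XBP1 in both) and 5 without SUDHL-4.

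The genes whose levels over the 12 libraries were most like those of each target were sought among 12620 genes with a symbol and a mean log2 value of at least 5. Because the 12 libraries come from 4 lines, these correlations rest mostly on the line means and are descriptions. CD52 was nearest to CD27 (Pearson r 0.993), a memory B cell receptor, and HLA-DQA1 (0.989), a class II chain. CD38 was nearest to DCAF16 (0.995) and ALKBH3 (0.994), CD22 to PHF10 (0.994) and CCDC144B (0.992), and CR2 to POPDC2 (0.991) and SF3B1 (0.986). CD72 was nearest to SNX25 (0.990) and ZRANB1 (0.982), CD79B to CARD8-AS1 (0.980) and POC1B (0.9748), and CD37 to HNRNPUL1 (0.976) and SEMA6A-AS1 (0.966). MS4A1 followed ALG6 (0.968) and ICE2 (0.939), and CD79A, the flattest, KCNC4 (0.857) and MPZL3 (0.834).

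After each line's mean was subtracted, which leaves the differences among the 3 libraries of a line, other genes came first. MS4A1 was nearest to PSMD12 (r 0.982) and NAMPT (0.981), CD22 to HJURP (0.983) and CCDC171 (0.978), and CD72 to GCNT2 (0.983) and the B cell adaptor LAT2 (0.974). CD79B was nearest to MAP2K4 (0.978) and EVI2A (0.974), CD52 to OSTF1 (0.978) and LINC00643 (0.977), and CD79A to MTCH1 (0.968) and MRPL40P1 (0.965). CD37 followed ZFYVE1 (0.967) and MTERF4 (0.959), CR2 followed SUSD3 (0.957) and ATG7 (0.948), and CD38 followed DMC1 (0.942) and NPIPA1 (0.935). NPIPA1, and CCDC144B above, belong to families of near-identical copies, so their values are uncertain. Among the 9 genes themselves, within lines, r was highest for CD79B with CD72, at 0.802, and lowest for CD22 with CD52, at -0.781. MS4A1 had r of 0.723 with CD79B and -0.683 with CD79A, and CD22 had 0.706 with CD37. The MS4A1 values rest on the same libraries as the pattern of the CD79 chains above and are not separate support for it.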

How the data were processed

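RNA was measured in 12 libraries of 4 cell lines and 3 treatments, grouped by the labels. The values are log2 values in a single table that the authors deposited, from -2.41 to 20.1. STAR, Salmon, MACS and hg38 are named, without versions, in the submitters' processing notes. Neither the normalization nor the transform is stated there or in the labels. The numbers resemble a regularized log, on which changes of low genes would be understated, and sequencing depth is unknown, so no counting interval is given. Of 58684 entries, 28 held a date in place of a symbol and were left out, and 17112 were listed at 0 in all libraries. 

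Tests ran on the 22528 genes that reached log2 1 in 4 or more libraries. Limma 3.58.1 in R 4.3.3 fitted treatment and cell line to all 12 libraries, with an intensity trend, 6 residual and 9.62 total degrees of freedom. Calls had a Benjamini-Hochberg adjusted p below 0.05, two-sided, with no minimum fold. The code was tested on simulated data. With 1 library per line and treatment, p-values of the treatment comparisons measure how evenly a change appeared over 4 lines, and part of that spread may be technical. Those of the comparisons between lines measure how evenly a difference appeared over the 3 treatments, without replicate cultures of a line. Cell line was the pairing factor: the deviations of libraries from their treatment means had r of 0.918 to 0.977 within a line and -0.574 to 0.199 across lines. The comparisons of each compound with DMSO share the DMSO libraries, and the 3 contrasts share 1 estimate of the spread. The plan for linear or count values was not needed, as values were on a log2 scale.

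The members and lists were chosen with earlier results of these data known. Named genes are the 9 members, up to 4 called genes per list with the largest avadomide change, and the 2 most correlated genes of each member. CD47, TNFRSF13C and SYK were added after their values were seen. A gene that counts in some lists is not reported here. Loci are from GENCODE 29, promoters from RefSeq (GRCh38.p14). Tables and plots used Python 3.11.15, pandas 2.3.3 and matplotlib 3.10.9. Alternatives covered the filter, scaling, the line term, the variance prior, the libraries fitted and leaving out each line. Removal of a trend with GC content and length, called the GC trend for short, also took out each treated library's mean change. It was limited, after seeing the data, to 17290 genes with a symbol, since 78.1% of all tested genes had such values.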

Additional observations from a re-analysis of the deposited data

Results flagged for a closer look

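In 7 of 54 groups of 4 values, 1 line stood further from the rest than Dixon's 95% limit allows, and chance marks about 1 group in 20. The groups are not independent, since the levels and changes of a gene come from the same 12 libraries. Their count was therefore not tested against chance. TMD8 was apart in the CD79A level under DMSO (15.08), the CD79B level under avadomide (14.34) and the MS4A1 change with lenalidomide (-0.16). U2932 was apart in the CD37 change with avadomide (-0.4) and with lenalidomide (-0.42), and in the CD72 level under DMSO (9.65) and under lenalidomide (9.86).

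MS4A1 moved in opposite directions in SUDHL-4 and TMD8 with both compounds. In SUDHL-4 it was 0.26 higher with avadomide and 0.16 higher with lenalidomide, and in TMD8 it changed by -0.24 and -0.16. Each line's changes share 1 DMSO library, and the difference between the lines was not tested.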

How the results depend on the processing

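Over 15 alternatives, 364 of 405 comparisons of a gene's change with its reported value kept direction and side of the threshold. CD22, CD37 and CD52 stayed called for avadomide in 9, 7 and 9 of the 15. The depth behind the values is unknown. For avadomide, where 5582 genes were called, there were 0 calls with no replicate block (514 at an unadjusted p below 0.05), 1376 with only the 8 libraries compared, and 2666 to 4644 when 1 line was left out (2666 without WSU-DLCL2, 3315 without U2932). Of the 9 genes, 0 were higher and 0 lower with no filter on low values, with no replicate block and with only the 8 libraries; with no intensity trend 0 were higher and 1 lower; leaving out 1 line gave 0 to 2 higher and 0 to 1 lower. Without the filter CD22, CD37 and CD52 had adjusted p of 0.0532, 0.108 and 0.0713.

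For lenalidomide, with 53 genes called, the count was 0 with no filter, with median centring, with no replicate block (61 at an unadjusted p below 0.05) and with the GC trend removed, 1 with no intensity trend, 21 with quantile normalization, 32 among genes with a symbol and GC value, 132 with a minimum log2 value of 5, 669 with only the 8 libraries and 0 to 67 without 1 line (0 without U2932 or WSU-DLCL2, 1 without SUDHL-4). With only the 8 libraries 1 of the 9 genes was called, CD72 (adjusted p 0.0493). For avadomide against lenalidomide, with 1065 genes called, it was 220 with no filter, 1736 with median centring, 0 with no replicate block (110 at an unadjusted p below 0.05), 10 with no intensity trend and 0 to 507 without 1 line (0 without U2932, 15 without WSU-DLCL2, 62 without TMD8, 507 without SUDHL-4).

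The split of called genes moved with scaling: for avadomide to 2544 higher and 3644 lower with quantile normalization and to 1706 and 4504 with the GC trend removed (2627 and 2452 for the same genes without removal), and against lenalidomide from 565 and 500 to 380 and 1356 with median centring, 487 and 696 with quantile normalization and 379 and 1217 with the GC trend removed (587 and 597). Across genes, the avadomide change correlated with GC content at a Spearman rho of -0.417 in SUDHL-4, -0.218 in WSU-DLCL2, -0.0627 in U2932 and -0.0621 in TMD8; the part of this in the changes was not tested.

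Sign changes all concerned genes that were not called. For avadomide, MS4A1 was -0.10 with median centring and -0.15 with the GC trend removed, and without 1 line it was -0.077 to 0.089 (-0.068 without WSU-DLCL2); CD79A was -0.078 with median centring and -0.041 to 0.12 without 1 line (-0.038 without U2932); CR2 was -0.72 to 0.20 without 1 line (0.056 without SUDHL-4). For lenalidomide MS4A1 was -0.021 with the GC trend removed. Against lenalidomide, CD79B was -0.040 and CD72 -0.014 with median centring, and without 1 line MS4A1 was -0.12 to 0.034, CD79A -0.096 to 0.0025, CD79B -0.031 to 0.11, CD38 -0.21 to 0.043 (0.0097 without TMD8), CD72 -0.064 to 0.22 and CR2 -0.32 to 0.55. The cause was not tested. The planned removal of the GC trend over all tested genes was not run.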
